A study of Mus musculus with 8 samples.

Results

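The keratin genes were followed across 4 subsets of medullary thymic epithelial cells (mTECs), the epithelial cells of the inner part of the thymus that display self-antigens to developing T cells. Members were the protein-coding genes whose annotated symbol is Krt followed by a number and, in some, a letter, with keratin-associated proteins excluded. By this rule 53 of the 25466 genes of the count table were keratins. All 53 had a row in the table, 44 passed the filter on low counts and were tested, and 9 did not pass it and are given by raw counts.

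All cells came from BL6N6 wild-type mice aged 4 to 6 weeks, were sorted as CD45neg Epcam+ CDR1neg, and were then divided by 2 surface proteins. Tspan8 is a tetraspanin that served as an example of a tissue-restricted antigen, and MHCII is an antigen-presenting molecule used as a mark of maturity. The subsets were Tspan8negMHCIIlo, Tspan8negMHCIIhi, Tspan8posMHCIIhi and Tspan8posMHCIIlo, each with 2 libraries described as biological replicates. The sources used here do not say whether these came from separate mice, so the p-values measure the spread between these samples, which may be technical. The subsets are surface-marker gates and not single cell types, and in such bulk samples fewer cells of a type and less RNA per cell cannot be told apart.

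Library totals ranged from 1941518 to 7783841 counts, with the lowest in replicate 1 of Tspan8posMHCIIlo. The Tspan8 transcript was higher in Tspan8pos libraries at both MHCII levels (log2 fold changes of 5.24 and 5.56), and H2-Ab1, which encodes an MHCII chain, was higher in MHCIIhi libraries at both Tspan8 levels (1.42 and 2.33). All 8 medullary epithelial markers, among them Epcam, Aire, Krt5 and Krt14, were above 0 in every library. Krt5 and Krt14 are themselves keratins studied here, and the markers of other cells below were above 0 as well. Being above 0 therefore does not identify the cells. Aire ran from 14.8 CPM in replicate 1 of Tspan8posMHCIIlo to 2658 CPM in replicate 1 of Tspan8negMHCIIhi. Thymocyte markers (6 genes) summed to 336.2 and 932.7 CPM (counts scaled to a common library size) in Tspan8negMHCIIlo and to between 62.8 and 196.4 CPM in the other 6 libraries, with no marker at 0. The sum of 5 cortical epithelial markers was also highest in Tspan8negMHCIIlo, at 1064 and 821.7 CPM against 255.6 to 475.3 CPM elsewhere, but Ctsl alone made up 953.3 and 605.5 CPM of it, and Ly75 and Enpep were highest in Tspan8negMHCIIhi. Endothelial markers summed to between 85.3 and 120.2 CPM in the MHCIIlo libraries and to between 23.1 and 28.5 CPM in the MHCIIhi libraries. B cell markers lay between 19.3 and 51.2 CPM and the sum of 5 fibroblast markers between 114.3 and 200.4 CPM in the Tspan8neg libraries and between 48.8 and 86 CPM in the Tspan8pos libraries, with no marker at 0. In Tspan8negMHCIIhi Col1a1 alone made up 88.6 and 91.3 CPM of the fibroblast sum. The part of these other cells in the keratin differences was not tested.

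Keratins are the intermediate filament proteins of epithelia. A filament is built from pairs of an acidic type I and a basic type II keratin, and epithelia change the pair they use as they differentiate. Simple keratins such as Krt8 and Krt18 belong to single-layered and glandular epithelia, and basal keratins such as Krt5 and Krt14 to the dividing layer of stratified epithelia. Suprabasal keratins replace them in the upper layers, with Krt1 and Krt10 in epidermis, Krt4 and Krt13 in mucosa and Krt6a, Krt6b and Krt16 in wounded or fast-growing epithelium. Hair keratins build the hair shaft and its root sheaths. In the thymus, Krt8 is known from cortical epithelium, Krt5 and Krt14 from the medulla, and Krt10 from the terminally differentiated cells of the medulla. The 53 members comprised 6 simple, 4 basal, 16 suprabasal and 23 hair keratins, with 4 unclassified.

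The keratin genes lay in 2 clusters on the GRCm38 genome. Chromosome 11 held 27 members between chr11:99232761-100269871, 26 of them type I and 1, Krt222, without an assigned type. Chromosome 15 held 26 members between chr15:101347444-102032027, of which 25 were type II and 1, Krt18, was type I.

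Keratin transcripts took a larger part of all counts in the Tspan8pos libraries. The share was 0.992% and 0.781% in Tspan8negMHCIIlo, 0.611% and 0.579% in Tspan8negMHCIIhi, 1.804% and 1.753% in Tspan8posMHCIIhi, and 2.05% and 1.93% in Tspan8posMHCIIlo. All 4 Tspan8pos libraries lay above all 4 Tspan8neg libraries.

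**Figure D1:**
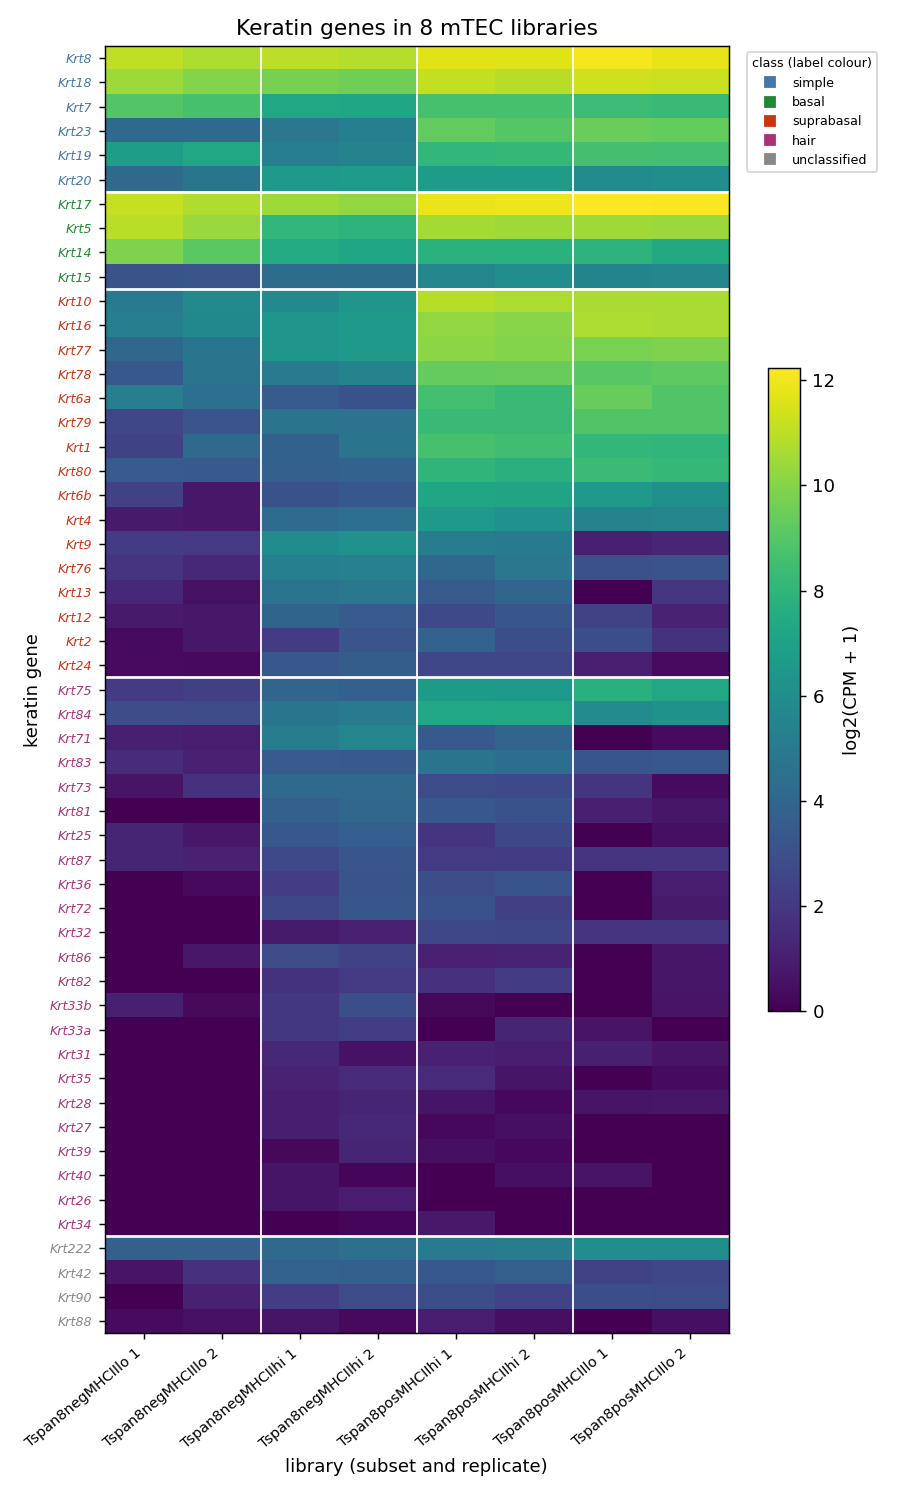
Levels of the 53 keratin genes, as log2(CPM + 1) by colour, in 8 libraries (columns), with genes in rows by class and by falling mean level. Krt8, Krt18, Krt17 and Krt5 are bright in every library, most suprabasal keratins brighten in the 4 Tspan8pos libraries, and most hair keratins are brightest in the 2 Tspan8negMHCIIhi libraries.

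To compare levels between keratins, CPM was divided by the length of each gene's exons in kb. On this scale Krt17 ranked first in Tspan8negMHCIIlo (1307 ± 261, SD, n = 2), Tspan8posMHCIIhi (2465 ± 57.9) and Tspan8posMHCIIlo (3042 ± 101 CPM per kb), and Krt8 ranked first in Tspan8negMHCIIhi (997.7 ± 76.2 CPM per kb). Krt17, Krt8 and Krt18 were among the 3 highest in every subset. Krt5 followed them in both Tspan8neg subsets, at 775.6 ± 215 and 117.1 ± 9.78 CPM per kb. In the Tspan8pos subsets the fourth place was taken by a suprabasal keratin, Krt10 in MHCIIhi (861.4 ± 89.6) and Krt16 in MHCIIlo (1069 ± 31.6 CPM per kb).

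The make-up of the keratin level differed by subset. Suprabasal keratins made up 1.39% and 2.42% of the summed CPM per kb in Tspan8negMHCIIlo, 6.69% and 8.44% in Tspan8negMHCIIhi, 27.6% and 26.1% in Tspan8posMHCIIhi, and 24.6% and 25.5% in Tspan8posMHCIIlo. Basal keratins made up 56.3% and 53.0% in Tspan8negMHCIIlo, against 32.4% to 35.3% in the other 6 libraries. Most of this outside Tspan8negMHCIIlo was Krt17. In Tspan8negMHCIIlo, Tspan8negMHCIIhi, Tspan8posMHCIIhi and Tspan8posMHCIIlo in turn, Krt17 took a mean of 28.6%, 27.4%, 25.2% and 27.0%. Krt5 took 16.8%, 3.81%, 6.91% and 5.61%, and Krt14 took 9.1%, 3.08%, 1.31% and 1.04%. Simple keratins reached 55.2% and 53.9% in Tspan8negMHCIIhi and lay between 37.3% and 44.3% elsewhere. Hair keratins stayed at or below 3.14% of the level, with the 2 highest shares in Tspan8negMHCIIhi (2.32% and 3.14%). These shares are sums over chosen genes and were not tested.

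**Figure D2:**
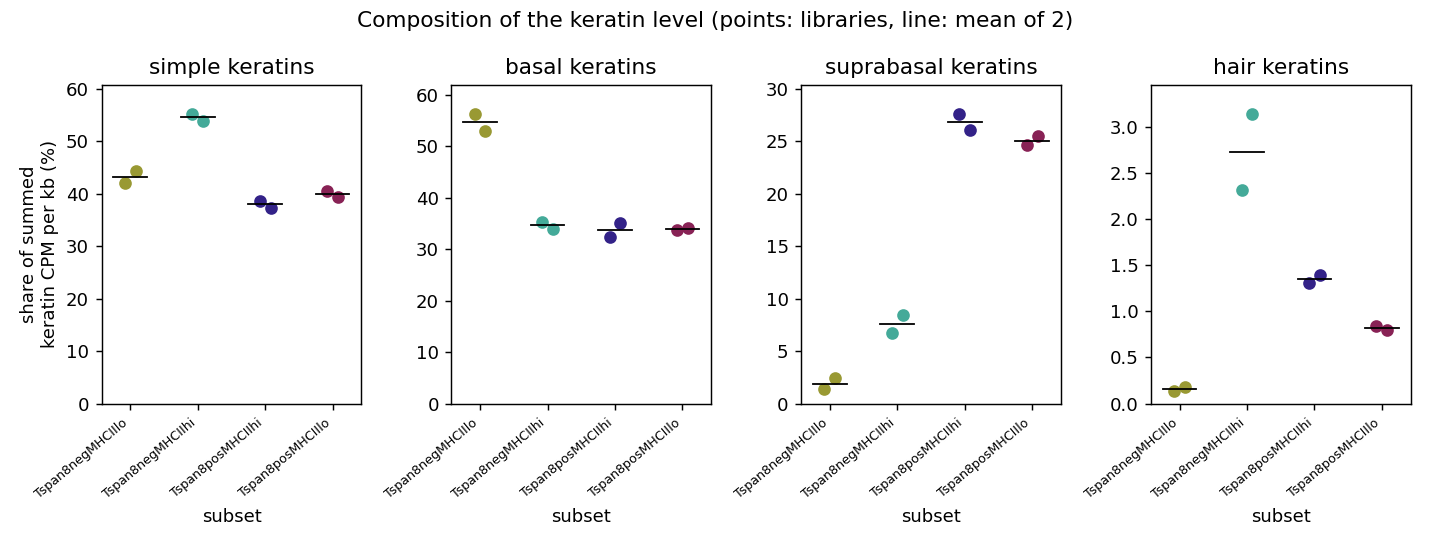
Share of the summed keratin level (CPM per kb of exon, in percent) taken by simple, basal, suprabasal and hair keratins in the 4 subsets; points are libraries and lines the means of 2. Basal keratins stand at 54.7% in Tspan8negMHCIIlo, simple keratins at 54.5% in Tspan8negMHCIIhi, and suprabasal keratins at 26.8% and 25.1% in the Tspan8pos subsets. Of the basal class, Krt17 alone takes 25.2% to 28.6% of the level in every subset.

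Type II keratins supplied 40.4% and 40.7% of the keratin level in Tspan8negMHCIIlo, 42.2% and 42.1% in Tspan8negMHCIIhi, 35.9% and 36.1% in Tspan8posMHCIIhi, and 34.1% and 33.0% in Tspan8posMHCIIlo. Without division by length these means became 49.6%, 49.9%, 46.2% and 43.4%, so the balance of the types depends on the length used, while the Tspan8pos values were below the Tspan8neg values on both scales.

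The first question was how keratins differ between Tspan8pos and Tspan8neg cells among MHCIIlo mTECs. Of the 44 keratins tested, 24 were higher in Tspan8posMHCIIlo and 1, Krt14, was lower (edgeR quasi-likelihood test; a call needed an adjusted p below 0.01 and a log2 fold change of 1 or more in either direction). Of all 17006 genes tested, 12.1% were called higher and 9.34% lower. By class, 11 of 16 suprabasal, 5 of 6 simple, 2 of 4 basal and 4 of 15 tested hair keratins were higher. Without replicate 2 of Tspan8negMHCIIlo, 3 of 6 simple keratins were called higher. The median log2 fold change of the tested keratins was 2.43, against -0.03 over all genes tested; tested members had to pass the low-count filter, which a gene high in 1 subset can do.

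Among MHCIIhi cells, 20 keratins were higher in the Tspan8pos subset and 3 were lower (Krt9, Krt33b and Krt71). Here 11% of all genes tested were higher and 7.45% lower. The calls covered 10 of 16 suprabasal, 4 of 6 simple, 3 of 4 basal and 3 of 15 tested hair keratins on the higher side. Without replicate 2 of Tspan8negMHCIIhi 0 keratins were called lower, and without replicate 1 or 2 of Tspan8posMHCIIhi 1 was. Both Tspan8 comparisons use separate libraries but come from the same fit, which pools the spread over all subsets. In both, 18 keratins were called higher, and the share of all genes called higher in both was not counted. Another 6 were called in MHCIIlo alone (Krt8, Krt20, Krt32, Krt76, Krt90 and Krt222) and 2 in MHCIIhi alone (Krt5 and Krt7). Of these, Krt76 lost its call without replicate 2 of Tspan8negMHCIIlo (1.58) or without replicate 1 or 2 of Tspan8posMHCIIlo (1.899 and 1.79), Krt32 without replicate 2 of Tspan8posMHCIIlo (edgeR adjusted p = 0.0187), and Krt90 without any 1 of 5 libraries (edgeR adjusted p up to 0.0381). Krt33b, with 66 counts in Tspan8negMHCIIhi and 1 in Tspan8posMHCIIhi, lost its call without any 1 of the 4 MHCIIhi libraries (edgeR adjusted p up to 0.0746). A call at one level and not at the other does not show a difference, which the interaction below tests.

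Krt10 and Krt1 are the suprabasal pair of the epidermis. Krt10 (chr11:99385254-99389364, minus strand), the type I keratin of differentiating keratinocytes, had 33.1 and 54.9 CPM in Tspan8negMHCIIlo, 57.4 and 82.8 in Tspan8negMHCIIhi, 1955 and 1687 in Tspan8posMHCIIhi, and 1629 and 1632 in Tspan8posMHCIIlo. All 4 Tspan8pos libraries exceeded the highest Tspan8neg library (log2 fold change 5.20, SE 0.26, edgeR adjusted p = 1.72e-07 in MHCIIlo). Krt10 is overlapped on the opposite strand by Gm11940, and strand could not be settled for these libraries. Its type II partner Krt1 had 4.21 and 17.9 CPM in Tspan8negMHCIIlo, 12.9 and 25.1 in Tspan8negMHCIIhi, 413 and 353 in Tspan8posMHCIIhi, and 271 and 266 in Tspan8posMHCIIlo. The 2 Tspan8negMHCIIlo libraries of Krt1 were far apart, but neither came near the Tspan8pos libraries (log2 fold change 4.55, SE 0.43, edgeR adjusted p = 1.2e-05 in MHCIIlo and log2 fold change 4.29, SE 0.40, edgeR adjusted p = 1.1e-05 in MHCIIhi).

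Krt77 (chr15:101858731-101869705), known from sweat gland ducts, had 16.3 and 26.4 CPM in Tspan8negMHCIIlo, 82.4 and 94.5 in Tspan8negMHCIIhi, 1110 and 1014 in Tspan8posMHCIIhi, and 876 and 944 in Tspan8posMHCIIlo. Krt78, a type II keratin of stratified epithelia, had 9.27 and 24.8 CPM in Tspan8negMHCIIlo, 33.1 and 42.8 in Tspan8negMHCIIhi, 641 and 672 in Tspan8posMHCIIhi, and 527 and 584 in Tspan8posMHCIIlo. Krt79, known from the hair canal, had 5.06 and 8.25 CPM in Tspan8negMHCIIlo, 25.4 and 24.6 in Tspan8negMHCIIhi, 305 and 309 in Tspan8posMHCIIhi, and 478 and 487 in Tspan8posMHCIIlo. Krt77, Krt78 and Krt79 rose in Tspan8pos cells by 5.40, 5.001 and 6.15 on the log2 scale in MHCIIlo, and by 3.58, 4.10 and 3.62 in MHCIIhi. Krt79 had no overlap between any 2 subsets. Krt80, which is found in many epithelia near junctions between cells, had 10.4 and 10.1 CPM in Tspan8negMHCIIlo, 12.5 and 13.2 in Tspan8negMHCIIhi, 254 and 218 in Tspan8posMHCIIhi, and 321 and 281 in Tspan8posMHCIIlo. Its Tspan8neg libraries all lay between 10.1 and 13.2 CPM, below every Tspan8pos library (log2 fold change 4.87, SE 0.18, edgeR adjusted p = 6.27e-08 in MHCIIlo and log2 fold change 4.19, SE 0.16, edgeR adjusted p = 1.75e-07 in MHCIIhi).

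The keratins of activated epithelium rose together with them. Krt16 had 37.1 and 51.2 CPM in Tspan8negMHCIIlo, 85.5 and 93.7 in Tspan8negMHCIIhi, 1235 and 1084 in Tspan8posMHCIIhi, and 1708 and 1638 in Tspan8posMHCIIlo, with log2 fold change 5.24, SE 0.18, edgeR adjusted p = 5.44e-08 in MHCIIlo and log2 fold change 3.69, SE 0.17, edgeR adjusted p = 1.97e-07 in MHCIIhi. Krt6a had 36.5 and 21.2 CPM in Tspan8negMHCIIlo, 10.4 and 7.56 in Tspan8negMHCIIhi, 386 and 316 in Tspan8posMHCIIhi, and 668 and 481 in Tspan8posMHCIIlo. It was lowest in Tspan8negMHCIIhi, below Tspan8negMHCIIlo, and rose in Tspan8pos cells by 4.32 in MHCIIlo and 5.31 in MHCIIhi on the log2 scale. Krt6b had 4.21 and 0.707 CPM in Tspan8negMHCIIlo, 7.49 and 9.23 in Tspan8negMHCIIhi, 151 and 142 in Tspan8posMHCIIhi, and 95.6 and 69.6 in Tspan8posMHCIIlo, and it rose by 5.11 in MHCIIlo and 4.11 in MHCIIhi on the log2 scale. Of the 54-base windows of their transcripts, the read length, 44.4% in Krt6a, 48.6% in Krt6b and 35.4% in Krt16 also occur in another gene, so their counts may be split between copies.

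Krt4 and Krt13 form the pair of mucosal epithelia. Krt4 had 0.843 and 0.707 CPM in Tspan8negMHCIIlo, 18.5 and 20.9 in Tspan8negMHCIIhi, 94.6 and 71.7 in Tspan8posMHCIIhi, and 42.9 and 46.0 in Tspan8posMHCIIlo, rising in Tspan8pos cells by 5.82 in MHCIIlo and 2.07 in MHCIIhi. Its partner Krt13 had 1.69 and 0.472 CPM in Tspan8negMHCIIlo, 23.9 and 28.5 in Tspan8negMHCIIhi, 10.6 and 14.8 in Tspan8posMHCIIhi, and 0 and 2.87 in Tspan8posMHCIIlo. Krt13 was high in Tspan8negMHCIIhi, and neither Tspan8 comparison of it passed the test (edgeR adjusted p = 0.348 and 0.0738). Krt76, a type II keratin of the palate, had 2.53 and 1.65 CPM in Tspan8negMHCIIlo, 37.6 and 39.7 in Tspan8negMHCIIhi, 16.3 and 27.6 in Tspan8posMHCIIhi, and 7.15 and 7.78 in Tspan8posMHCIIlo. Its highest libraries were those of Tspan8negMHCIIhi.

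**Figure D3:**
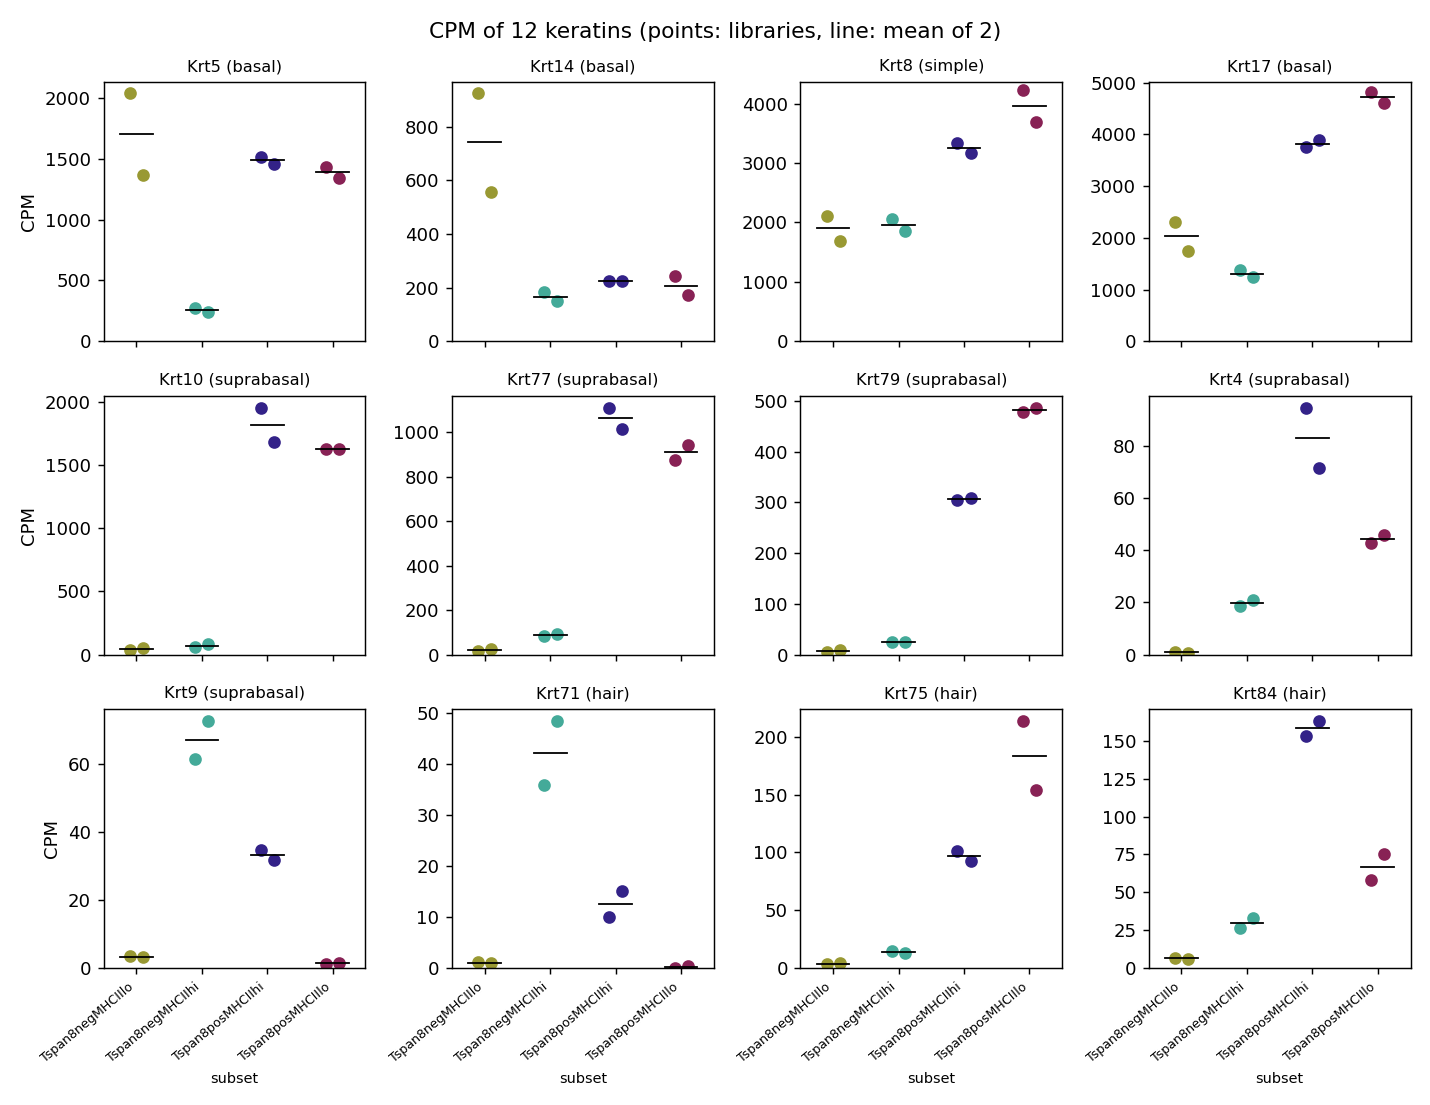
CPM of 12 keratins in the 4 subsets; points are libraries and lines the means of 2, and each panel has its own scale starting at 0. Krt10, Krt77 and Krt79 are low in both Tspan8neg subsets, Krt5 is low in Tspan8negMHCIIhi alone, Krt14 is high in Tspan8negMHCIIlo alone, and Krt9 and Krt71 are high in the 2 MHCIIhi subsets.

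Basal keratins split. Krt14 (chr11:100203162-100207548), the type I keratin of the basal layer, had 927 and 558 CPM in Tspan8negMHCIIlo, 182 and 151 in Tspan8negMHCIIhi, 225 and 226 in Tspan8posMHCIIhi, and 242 and 172 in Tspan8posMHCIIlo. It was highest in Tspan8negMHCIIlo, whose libraries differed from each other, and it fell in Tspan8posMHCIIlo (log2 fold change -1.85, SE 0.24, edgeR adjusted p = 0.000104). In MHCIIhi its Tspan8 difference did not pass the test (log2 fold change 0.44, SE 0.23, edgeR adjusted p = 0.158). Of its 54-base windows, 12.3% also occur in another gene, most of them in Krt16. Krt5 (chr15:101707070-101712898), its type II partner, had 2038 and 1370 CPM in Tspan8negMHCIIlo, 272 and 242 in Tspan8negMHCIIhi, 1518 and 1460 in Tspan8posMHCIIhi, and 1432 and 1344 in Tspan8posMHCIIlo. Only Tspan8negMHCIIhi was low, and the other 3 subsets had overlapping or neighbouring values (log2 fold change -0.30, SE 0.17, edgeR adjusted p = 0.185 for Tspan8 in MHCIIlo and log2 fold change 2.53, SE 0.18, edgeR adjusted p = 1.56e-06 in MHCIIhi). Krt5 overlaps Gm44323 on the opposite strand. Thymocyte markers were also highest in Tspan8negMHCIIlo, where Krt14 was highest. In Tspan8posMHCIIlo 2 of 6 were called lower, beside 9.34% of all genes tested. At an unadjusted p under 0.05 (edgeR) 6 of 6 were lower, without a share of all genes at that limit. The part of thymocytes in the Krt14 difference was not tested.

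Krt17, a basal and stress-induced keratin of skin appendages, had 2313 and 1740 CPM in Tspan8negMHCIIlo, 1376 and 1240 in Tspan8negMHCIIhi, 3760 and 3887 in Tspan8posMHCIIhi, and 4829 and 4608 in Tspan8posMHCIIlo. Krt15, known from basal cells and hair follicle stem cells, had 7.87 and 8.25 CPM in Tspan8negMHCIIlo, 18.9 and 19.1 in Tspan8negMHCIIhi, 48.4 and 64.0 in Tspan8posMHCIIhi, and 45.1 and 49.8 in Tspan8posMHCIIlo. Both rose in Tspan8pos cells at both MHCII levels, Krt17 by 1.22 and 1.55 and Krt15 by 2.56 and 1.56 on the log2 scale in MHCIIlo and MHCIIhi.

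The simple pair Krt8 and Krt18 was high throughout. Krt8 had 2115 and 1694 CPM in Tspan8negMHCIIlo, 2059 and 1848 in Tspan8negMHCIIhi, 3343 and 3174 in Tspan8posMHCIIhi, and 4233 and 3693 in Tspan8posMHCIIlo. Krt18 had 1396 and 999 CPM in Tspan8negMHCIIlo, 857 and 758 in Tspan8negMHCIIhi, 2207 and 1913 in Tspan8posMHCIIhi, and 2649 and 2451 in Tspan8posMHCIIlo. The pair rose by 1.06 and 1.09 in MHCIIlo on the log2 scale, and Krt18 by 1.35 in MHCIIhi, where Krt8 passed the adjusted p but not the fold limit (log2 fold change 0.74, SE 0.13, edgeR adjusted p = 0.00134). Without replicate 2 of Tspan8negMHCIIlo the MHCIIlo values were 0.90 for Krt8 and 0.87 for Krt18, and without replicate 1 of Tspan8posMHCIIlo Krt8 was at 0.95, each below the fold limit. Of the Krt8 windows, 26.1% also occur in the pseudogene Krt8-ps.

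Krt23, a type I member of the simple class, had the largest Tspan8 difference of that class. It had 17.4 and 17.2 CPM in Tspan8negMHCIIlo, 27.9 and 38.1 in Tspan8negMHCIIhi, 618 and 519.7 in Tspan8posMHCIIhi, and 688 and 643 in Tspan8posMHCIIlo. The lowest Tspan8pos library was at 519.7 CPM and the highest Tspan8neg library at 38.1 CPM (log2 fold change 5.26, SE 0.20, edgeR adjusted p = 6.27e-08 in MHCIIlo and log2 fold change 4.10, SE 0.18, edgeR adjusted p = 1.75e-07 in MHCIIhi). Krt19, a type I keratin without a tail domain, had 113 and 156 CPM in Tspan8negMHCIIlo, 36.8 and 43.5 in Tspan8negMHCIIhi, 273 and 280.0 in Tspan8posMHCIIhi, and 401 and 379 in Tspan8posMHCIIlo. Krt7, known from ducts, had 490.1 and 411 CPM in Tspan8negMHCIIlo, 160.1 and 147 in Tspan8negMHCIIhi, 402 and 405 in Tspan8posMHCIIhi, and 336 and 303 in Tspan8posMHCIIlo. Krt20, known from intestine and urothelium, had 17.98 and 26.4 CPM in Tspan8negMHCIIlo, 98.6 and 103 in Tspan8negMHCIIhi, 104 and 106 in Tspan8posMHCIIhi, and 58.3 and 63.6 in Tspan8posMHCIIlo. Krt19 and Krt7 were lowest in Tspan8negMHCIIhi and Krt20 in Tspan8negMHCIIlo. Krt19 rose in Tspan8pos cells by 1.53 in MHCIIlo and 2.78 in MHCIIhi on the log2 scale, Krt7 by 1.39 in MHCIIhi and Krt20 by 1.46 in MHCIIlo.

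Of the hair keratins, 3 were called higher in Tspan8pos cells at both MHCII levels. Krt75, of the companion layer of the hair follicle, had 3.37 and 4.01 CPM in Tspan8negMHCIIlo, 14.8 and 12.7 in Tspan8negMHCIIhi, 101 and 92.3 in Tspan8posMHCIIhi, and 214 and 154 in Tspan8posMHCIIlo. Krt84, known from nail and tongue, had 6.46 and 6.13 CPM in Tspan8negMHCIIlo, 26.0 and 32.9 in Tspan8negMHCIIhi, 153 and 163 in Tspan8posMHCIIhi, and 58.3 and 75.2 in Tspan8posMHCIIlo. Krt83, of the hair shaft, had 1.97 and 1.18 CPM in Tspan8negMHCIIlo, 10.4 and 10.1 in Tspan8negMHCIIhi, 24.9 and 20.1 in Tspan8posMHCIIhi, and 8.795 and 9.01 in Tspan8posMHCIIlo. Krt75 and Krt84 rose by 5.61 and 3.43 in MHCIIlo and by 2.83 and 2.41 in MHCIIhi. Krt83 was called in both (2.51 and 1.13), but in MHCIIhi the call was lost without any 1 of the 4 libraries compared, with values between 0.99 and 1.29. Of the unclassified members, Krt222 had 12.4 and 12.3 CPM in Tspan8negMHCIIlo, 17.9 and 22.2 in Tspan8negMHCIIhi, 32.7 and 35.4 in Tspan8posMHCIIhi, and 63.8 and 62.5 in Tspan8posMHCIIlo, with its highest values in Tspan8posMHCIIlo (log2 fold change 2.36, SE 0.19, edgeR adjusted p = 3.46e-06 in MHCIIlo).

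The next question was whether the Tspan8 difference itself depends on MHCII. The interaction, the Tspan8 difference in MHCIIlo minus that in MHCIIhi, was called for 12 keratins, 8 with the larger value in MHCIIlo and 4 with the larger value in MHCIIhi. Of all genes tested, 2.36% and 2.24% were called in these directions, 4.6% together. The 8 were Krt4, Krt16, Krt20, Krt75, Krt76, Krt77, Krt79 and Krt222, and the 4 were Krt5, Krt7, Krt14 and Krt19. For Krt5 the difference of the differences was -2.83 (SE 0.24, edgeR adjusted p = 0.000183), the largest in absolute size among the 4, and for Krt4 it was 3.75 (SE 0.42, edgeR adjusted p = 0.000483). For Krt10 (0.51), Krt1 (0.26) and Krt17 (-0.33) it did not pass the test. The count was 7 without replicate 2 of Tspan8negMHCIIhi, 6 and 7 without replicate 1 or 2 of Tspan8posMHCIIhi, and 7 and 5 without replicate 1 or 2 of Tspan8posMHCIIlo.

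**Figure D4:**
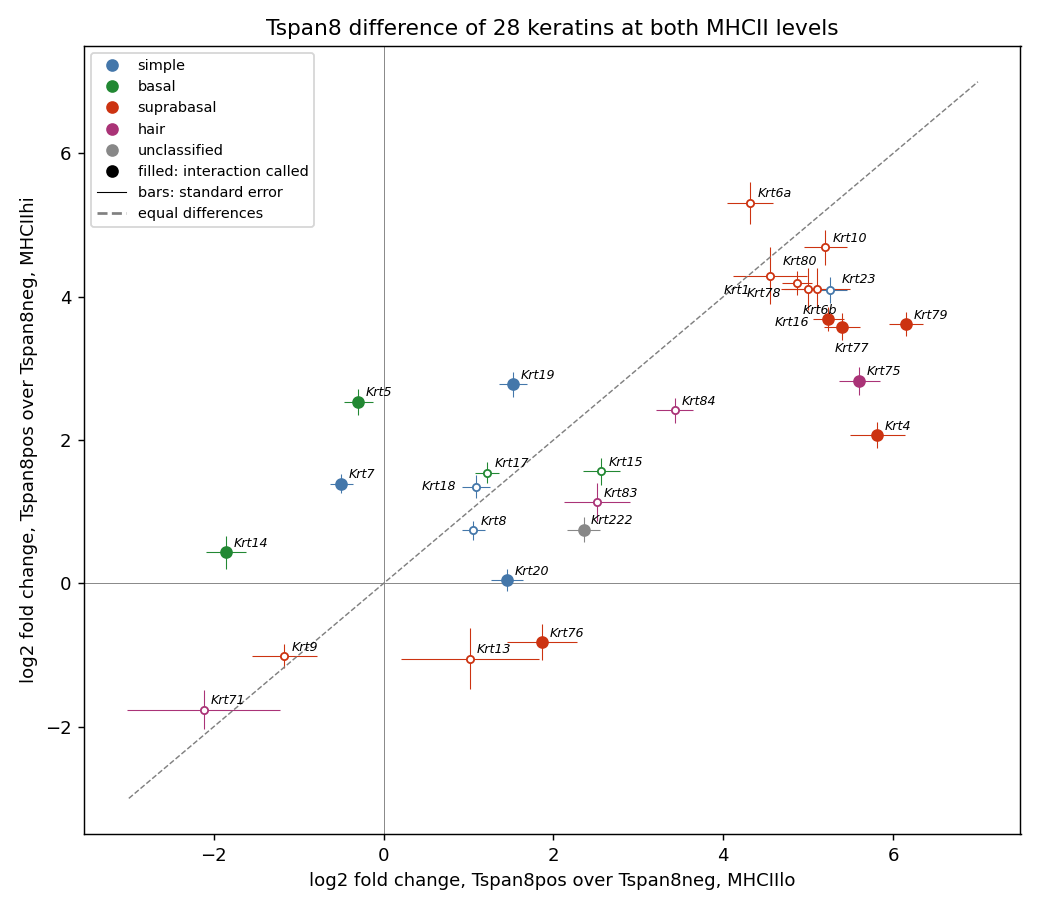
Log2 fold change of Tspan8pos over Tspan8neg in MHCIIlo (x axis) and in MHCIIhi (y axis) for the 28 keratins with a mean of at least 10 CPM; bars are standard errors, the dashed line marks equal differences, and filled points are genes whose interaction was called. Krt5, Krt7, Krt14 and Krt19 lie above the line, and Krt4, Krt75, Krt79 and Krt76 lie below it.

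The comparison of MHCIIhi with MHCIIlo was made within each Tspan8 level, and it shares libraries with the Tspan8 comparisons. In Tspan8neg cells, 27 keratins were higher in MHCIIhi and 5 were lower, and of all genes tested 13.1% were higher and 9.67% lower. The higher ones comprised 12 of 15 tested hair and 11 of 16 suprabasal keratins. Only 1 of 6 simple (Krt20) and 1 of 4 basal (Krt15) were among them. Of the 23 hair keratins, 15 passed the low-count filter, which a gene high in MHCIIhi alone can do. The hair share is therefore partly set by the filter, here and in the MHCII comparison of Tspan8pos cells. The 5 lower ones were Krt5, Krt6a, Krt7, Krt14 and Krt19, with log2 fold changes of -2.73, -1.70, -1.55, -2.16 and -1.74. Without replicate 2 of Tspan8negMHCIIhi the calls fell from 32 to 23 in all and from 12 to 7 among hair keratins. The calls lost there were those of Krt2, Krt6b, Krt25, Krt36, Krt82, Krt86, Krt87 and Krt90 on the higher side and Krt6a on the lower side (-1.37). Krt6b and Krt86 lost the call without any 1 of 7 libraries, Krt90 likewise, and Krt82 without any 1 of 6. Krt17 passed the adjusted p without the fold limit (log2 fold change -0.63, SE 0.14, edgeR adjusted p = 0.00375), as did Krt23 (log2 fold change 0.94, SE 0.19, edgeR adjusted p = 0.00231).

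In Tspan8pos cells, 10 keratins were higher in MHCIIhi and none was lower, where 4.59% and 2.62% of all genes tested were called, 7.21% in both directions together. The 10 were Krt9, Krt13, Krt24, Krt25, Krt36, Krt71, Krt76, Krt81, Krt83 and Krt84, all of them also called higher in MHCIIhi among Tspan8neg cells. At an unadjusted p under 0.05 in edgeR 7 were lower, and DESeq2 called 8 higher and 0 lower. Without the fold limit 3 were lower (Krt75, Krt79 and Krt222, at -0.91, -0.65 and -0.89) and Krt4 and Krt20 were also higher (0.90 and 0.77). Krt9, Krt71 and Krt84 kept the call when any 1 library was left out, and the other 7 did not. The count was 4 without replicate 1 or 2 of Tspan8negMHCIIhi, 4 and 5 without replicate 1 or 2 of Tspan8posMHCIIhi, and 6 and 4 without replicate 1 or 2 of Tspan8posMHCIIlo.

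Krt9 (chr11:100186781-100193246), the keratin of palms and soles, had 3.37 and 3.07 CPM in Tspan8negMHCIIlo, 61.6 and 72.8 in Tspan8negMHCIIhi, 34.7 and 31.9 in Tspan8posMHCIIhi, and 1.099 and 1.502 in Tspan8posMHCIIlo. All 4 MHCIIhi libraries lay above all 4 MHCIIlo libraries (log2 fold change 4.38, SE 0.23, edgeR adjusted p = 5.9e-07 in Tspan8neg and log2 fold change 4.54, SE 0.28, edgeR adjusted p = 6.09e-06 in Tspan8pos). Within MHCIIhi it was lower in Tspan8pos cells (log2 fold change -1.02, SE 0.17, edgeR adjusted p = 0.00075), a value at the fold limit. It dropped below the limit without replicate 2 of Tspan8negMHCIIhi (-0.96) or of Tspan8posMHCIIhi (-0.95), or without replicate 1 of Tspan8negMHCIIlo (-0.995) or of Tspan8posMHCIIlo (-0.99). Krt71 (chr15:101733949-101743109), of the inner root sheath, had 1.12 and 0.943 CPM in Tspan8negMHCIIlo, 35.98 and 48.5 in Tspan8negMHCIIhi, 9.96 and 15.04 in Tspan8posMHCIIhi, and 0 and 0.273 in Tspan8posMHCIIlo. It rose in MHCIIhi among Tspan8neg cells (log2 fold change 5.33, SE 0.40, edgeR adjusted p = 3.77e-06). Among Tspan8pos cells it was also called (edgeR adjusted p = 7.32e-05), with 50 and 74 counts in MHCIIhi against 0 and 2 in MHCIIlo, too few for a fold. Like Krt9, it was lower in Tspan8pos than in Tspan8neg cells among MHCIIhi (log2 fold change -1.76, SE 0.28, edgeR adjusted p = 0.000489). That call on Krt71 was lost without replicate 2 of Tspan8negMHCIIhi (-1.60) or replicate 1 of Tspan8posMHCIIhi (-1.47).

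Most other hair keratins were close to the detection floor of 3 counts, and their counts, not their folds, carry the result. Krt81, of the hair shaft, had 61 and 119 counts in Tspan8negMHCIIhi, 45 and 37 in Tspan8posMHCIIhi, 2 and 5 in Tspan8posMHCIIlo, and 0 in both Tspan8negMHCIIlo libraries. Against the floor over both libraries, it was at least 37.1-fold higher in MHCIIhi than in MHCIIlo among Tspan8neg cells. Krt72, of the inner root sheath, had 92 counts in Tspan8negMHCIIhi and none in Tspan8negMHCIIlo, at least 19-fold higher, and Krt82, of the hair shaft, had 37 and none, at least 7.63-fold higher. The call on Krt82 was lost without any 1 of 6 libraries (edgeR adjusted p up to 0.0339). Of the Krt81 windows, 41.8% also occur in another gene, most of them in Krt86.

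Some other low members were highest in Tspan8negMHCIIhi. Krt73 and Krt25 belong to the inner root sheath. Krt73 (2, 10, 83, 139, 31, 27, 5 and 2 counts), Krt25 (5, 3, 45, 92, 13, 26, 0 and 3) and Krt24 (1, 1, 43, 88, 26, 25, 2 and 2) are given with Tspan8negMHCIIlo, Tspan8negMHCIIhi, Tspan8posMHCIIhi and Tspan8posMHCIIlo in turn, replicate 1 first. Krt12, the keratin of the cornea, had 3, 3, 69, 80, 28, 42, 8 and 10 counts in the same order. In all 4 genes both MHCIIhi subsets were above both MHCIIlo subsets in counts. Krt33a was tested but called in none of the 4 comparisons, with 44 counts in Tspan8negMHCIIhi, 7 in Tspan8posMHCIIhi and 1 in the MHCIIlo subsets together. Not all low members peaked in Tspan8negMHCIIhi. Krt2, Krt32, Krt36 and Krt82 had their highest mean CPM in Tspan8posMHCIIhi, and Krt90 in Tspan8posMHCIIlo.

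The 9 keratins not tested, Krt26, Krt27, Krt28, Krt31, Krt34, Krt35, Krt39, Krt40 and Krt88, had between 5 and 34 counts over all 8 libraries. Of these, all but Krt88 had 0 counts in both Tspan8negMHCIIlo libraries, a level that allows up to 0.843 and 0.707 CPM per library at this depth. Floors cover counting error only, as reads copied by PCR and not marked by molecule do not count molecules.

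Where both markers differed, Tspan8posMHCIIhi had 32 keratins higher and 1 lower than Tspan8negMHCIIlo, beside 14.4% and 10.3% of all genes tested. Tspan8posMHCIIlo had 21 higher and 13 lower than Tspan8negMHCIIhi, beside 14.7% and 14.6%, or 29.3% together. The 13 lower ones comprised 8 hair and 5 suprabasal keratins, and the 21 higher ones 10 suprabasal and 2 hair keratins. These comparisons share libraries with all those above.

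Taking every member by the subset with its highest mean CPM, 21 of 53 keratins peaked in Tspan8negMHCIIhi, 17 in Tspan8posMHCIIhi, 12 in Tspan8posMHCIIlo and 3 in Tspan8negMHCIIlo. Among those that passed the low-count filter, the numbers were 15, 14, 12 and 3. By class, 15 of 23 hair keratins peaked in Tspan8negMHCIIhi and 4 of 6 simple keratins in Tspan8posMHCIIlo. The 2 Tspan8pos subsets held the peaks of 11 of 16 suprabasal keratins. Of the 15 hair keratins, Krt26, Krt27, Krt28, Krt35, Krt39 and Krt40 did not pass the filter. The Tspan8negMHCIIhi libraries also had the most genes above 0 (22705 and 23570). Where all genes peaked was not counted. The 3 that peaked in Tspan8negMHCIIlo were Krt5, Krt7 and Krt14. For Krt5 and Krt7 the gap to the next subset, Tspan8posMHCIIhi, did not pass the test (edgeR adjusted p = 0.366 and 0.355), whereas Krt14 was lower in that subset than in Tspan8negMHCIIlo (log2 fold change -1.72, SE 0.23, edgeR adjusted p = 0.00014).

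**Figure D5:**
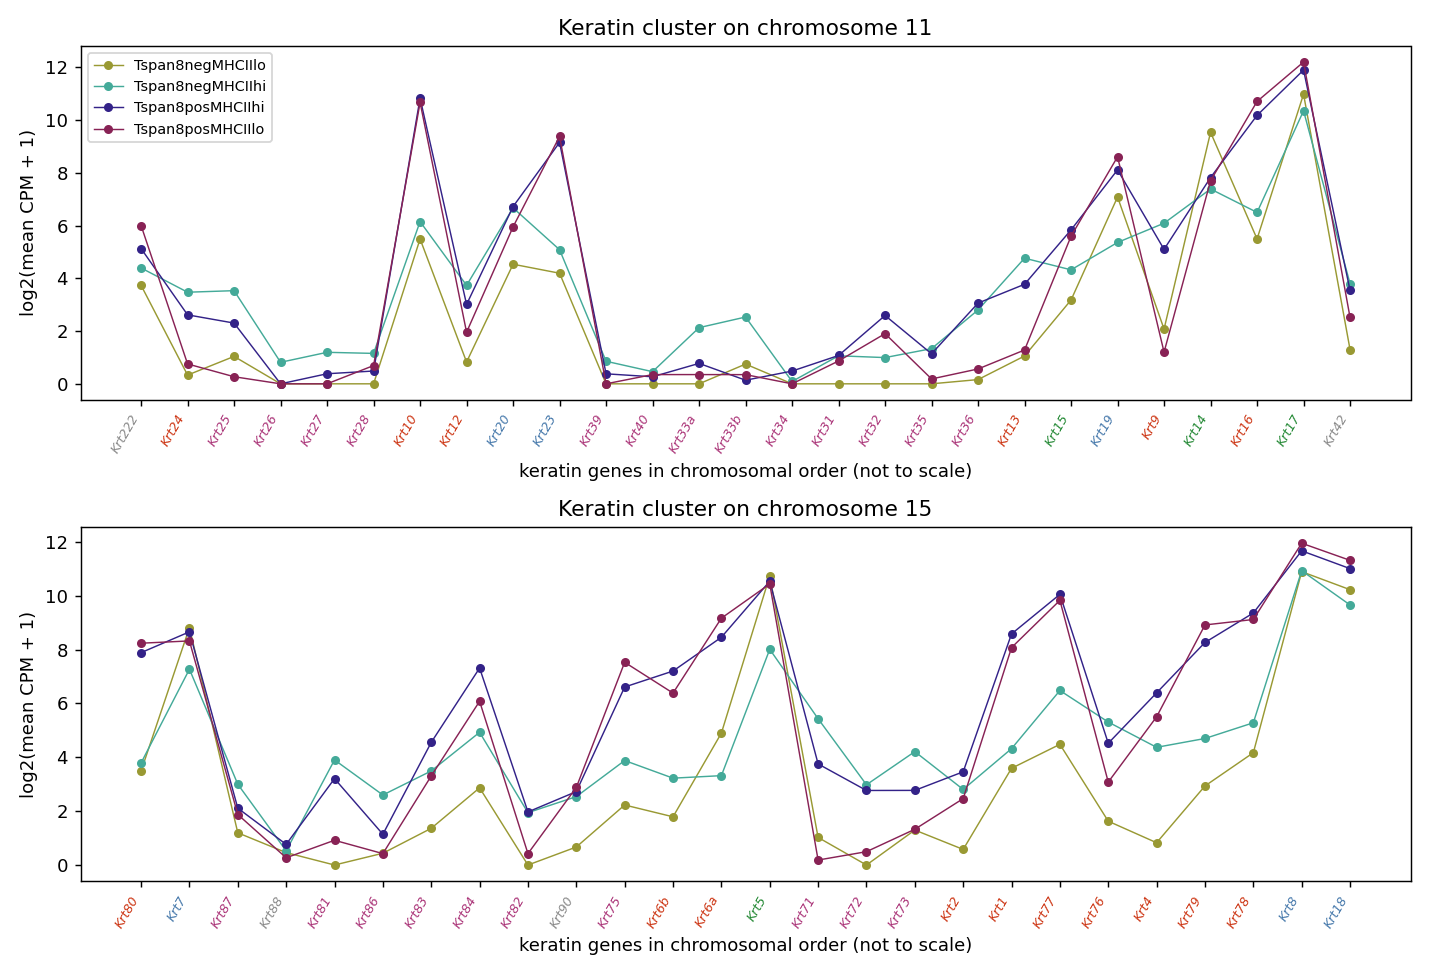
Mean level of each keratin as log2(mean CPM + 1) in the 4 subsets, with genes in chromosomal order on chromosome 11 (top) and chromosome 15 (bottom), label colour giving the class; the x axis is not to scale. The run of hair keratins from Krt39 to Krt36 on chromosome 11 stays low in every subset, and Krt1 and Krt77 to Krt78 on chromosome 15 separate the Tspan8pos from the Tspan8neg subsets, except at Krt76.

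Along the clusters, neighbouring genes could differ. On chromosome 11, Krt9 lies between Krt19 and Krt14, and it peaked in Tspan8negMHCIIhi while Krt19 peaked in Tspan8posMHCIIlo and Krt14 in Tspan8negMHCIIlo. On chromosome 15, Krt71 follows Krt5 and peaked in Tspan8negMHCIIhi, the subset in which Krt5 was lowest. Krt76 lies between Krt77 and Krt4, both of which were higher in Tspan8pos at both MHCII levels.

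Ratios of known partners were compared within libraries, 4 Tspan8pos against 4 Tspan8neg and 4 MHCIIhi against 4 MHCIIlo, for 6 pairs. The log2 ratio of Krt5 to Krt14 counts was 1.14 and 1.30 in Tspan8negMHCIIlo, 0.58 and 0.68 in Tspan8negMHCIIhi, 2.76 and 2.69 in Tspan8posMHCIIhi, and 2.57 and 2.96 in Tspan8posMHCIIlo. It was higher in every Tspan8pos library, by 1.82 on average (exact permutation test, two-sided, p = 0.0286, the smallest that 4 against 4 allows). After Benjamini-Hochberg adjustment over the 12 comparisons this p was 0.114. The smallest possible p already lies above the adjusted limit used for calls, so no ratio could have passed. The permutation test therefore cannot decide whether a ratio differs, and the values are given as description. The test also treats the 4 libraries of a group as alike, although they come from different subsets. The ratio of Krt6b to Krt17 also separated the Tspan8 groups without overlap, with the same p before and after adjustment, but Krt6b had 15 and 3 counts in Tspan8negMHCIIlo. The ratio of Krt4 to Krt13 was not measured well enough for a size, with 3 counts of Krt4 in each Tspan8negMHCIIlo library and 0 of Krt13 in replicate 1 of Tspan8posMHCIIlo. The comparisons other than these, those of Krt8 to Krt18 and Krt1 to Krt10 included, had groups that overlapped, with exact permutation p between 0.0571 and 0.714.

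Sequences upstream of the genes were then set beside these patterns. RefSeq start sites on GRCm38.p6 were given for 36 of the 53 keratins. The last 100 bases before the start are shown for 2 keratins that rose in Tspan8pos cells (Krt10 and Krt77), 2 that rose in MHCIIhi cells (Krt9 and Krt71), the basal keratin Krt5 and the simple keratin Krt18, all read 5′ to 3′ on the gene's strand. The starts are those of RefSeq. For Krt18 and Krt71 they lie inside the gene as annotated for the counts, so part of each stretch falls within that gene. Capitals mark matches to the motifs searched.
Krt10 (chr11:99389365-99389464, minus strand): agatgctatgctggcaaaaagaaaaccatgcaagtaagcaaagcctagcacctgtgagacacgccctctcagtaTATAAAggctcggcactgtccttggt
Krt77 (chr15:101869706-101869805, minus strand): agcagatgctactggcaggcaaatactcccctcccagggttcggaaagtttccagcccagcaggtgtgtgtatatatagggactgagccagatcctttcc
Krt9 (chr11:100193247-100193346, minus strand): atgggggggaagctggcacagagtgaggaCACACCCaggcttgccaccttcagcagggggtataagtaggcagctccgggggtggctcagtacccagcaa
Krt71 (chr15:101743098-101743197, minus strand): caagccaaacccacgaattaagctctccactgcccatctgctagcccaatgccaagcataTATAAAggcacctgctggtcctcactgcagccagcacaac
Krt5 (chr15:101712906-101713005, minus strand): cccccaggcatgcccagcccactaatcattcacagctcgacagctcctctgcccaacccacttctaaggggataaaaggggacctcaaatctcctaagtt
Krt18 (chr15:102028116-102028215, plus strand): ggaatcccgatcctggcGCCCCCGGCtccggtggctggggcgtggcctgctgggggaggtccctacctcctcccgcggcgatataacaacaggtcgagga

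The letters TATAAA stood on the gene's strand within the last 50 bases before the start in 15 of 36 keratins (41.7%), against 2.88% of 27025 promoters. In the sequences shown they occur in Krt10 and Krt71. The 15 were Krt10, Krt12, Krt20, Krt25, Krt26, Krt27, Krt28, Krt31, Krt32, Krt33b, Krt34, Krt40, Krt71, Krt73 and Krt76. Within 250 bases before the start and on both strands, GGAAGT, the core bound by ETS factors such as Ehf and Elf3, stood in 16.7% of the keratins and 20% of all promoters. GGGTGTG, a KLF site, stood in 13.9% and 6.85%, TGANTCA, an AP-1 site, in 2.78% and 6.87%, and GCCNNNGGC, an AP-2 site, in 13.9% and 13.6%. Of the 8 keratins with an entry that were higher in Tspan8pos at both MHCII levels, 1 held TATAAA, 1 the AP-2 letters and 0 the ETS, KLF or AP-1 letters. Of the 8 higher in MHCIIhi at both Tspan8 levels, 3 held TATAAA, and each of the other motifs stood in 1. Keratins were read at the RefSeq start nearest the annotated gene start, and all promoters at the first start listed for each gene. The shares of keratins and of all promoters are therefore not built alike. No test was made of these shares, and genes of a family share sequence.

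Genes around the keratins were read from lists of linkers, other intermediate filaments and regulators, chosen with earlier results of these data known. Of 16 linkers tested, proteins that tie keratins to junctions or bundle them, 9 were higher in Tspan8pos in MHCIIlo and 11 in MHCIIhi, and none was lower (1 and 0 at an unadjusted p under 0.05, edgeR). Of all genes tested, 12.1% and 11% were higher and 9.34% and 7.45% lower in these comparisons. They included desmoplakin (Dsp, 1.89 and 2.31 on the log2 scale), envoplakin (Evpl, 3.07 and 3.24) and periplakin (Ppl, 2.59 and 2.29), and the filament-bundling filaggrin (Flg, 6.07 and 4.16). Dst, a linker to hemidesmosomes, did not pass the fold limit in MHCIIlo (-0.84) and was lower in MHCIIhi than in MHCIIlo at both Tspan8 levels (-1.74 and -1.07).

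Of 15 other intermediate filament genes tested, 1 was higher and 5 were lower in Tspan8pos in MHCIIlo, and 0 were higher and 6 lower in MHCIIhi (0 and 10 at an unadjusted p under 0.05, edgeR), beside 12.1% and 9.34% of all genes in MHCIIlo and 11% and 7.45% in MHCIIhi. Vimentin (Vim), the filament of mesenchymal cells, fell by 2.53 and 2.60, and lamin B1 (Lmnb1), of the nuclear lamina, fell by 2.25 and 1.12 on the log2 scale. The summed fibroblast markers were also lower in every Tspan8pos library. In Tspan8negMHCIIhi, however, Col1a1 alone made up 88.6 and 91.3 CPM of the sums of 128.3 and 133 CPM. In each Tspan8 comparison 1 of the 5 was lower at an unadjusted p under 0.05 (edgeR), and 1 was called lower. Between Tspan8posMHCIIlo and Tspan8negMHCIIhi, 0 were called higher and 1 was called lower. At an unadjusted p under 0.05 (edgeR), 3 were higher and 1 lower in Tspan8posMHCIIlo there. The part of fibroblasts in the vimentin difference was not tested. Nuclear lamin A (Lmna) had 658.4 and 612.4 CPM in the Tspan8neg subsets and 771.8 and 673.6 CPM in the Tspan8pos subsets in MHCIIlo and MHCIIhi, and neither comparison passed the test.

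Of 16 regulators of keratin genes, 13 were higher in Tspan8pos in MHCIIlo and 12 in MHCIIhi, and none was lower (1 and 1 at an unadjusted p under 0.05, edgeR), beside 12.1% and 11% of all genes higher and 9.34% and 7.45% lower. The paper named Ehf, Elf3 and Klf4 as candidates partly from their expression in these same data. Their rise here is therefore not independent of that choice. Ovol1, a repressor of basal fate, rose by 3.48 and 2.25, Grhl1 by 2.79 and 2.60, Elf3 by 2.56 and 2.22, Ehf by 1.86 and 1.57 and Klf4 by 1.48 and 2.00 on the log2 scale. Trp63, the regulator of basal epithelial cells, passed the adjusted p but not the fold limit in both Tspan8 comparisons, with opposite signs (-0.80 in MHCIIlo and 0.81 in MHCIIhi). It was lower in Tspan8negMHCIIhi than in Tspan8negMHCIIlo (-1.28), as were Klf5 (-1.35) and Grhl2 (-1.19). The interaction of Trp63 was called as well (-1.61, SE 0.23, edgeR adjusted p = 0.00174).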

How the data were processed

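RNA was sequenced from 8 libraries of sorted mTECs, 2 for each of 4 subsets. The values deposited by the authors are estimated counts per gene, stored as whole numbers. Per the study's methods and the submitters' processing notes, reads were checked with FastQC and quantified with Salmon (version 1.8.0) on the mouse mm10 transcriptome. The methods describe amplified cDNA cut by tagmentation and the labels a stranded kit, so strand was not settled. Opposite-strand genes are named beside Krt10 and Krt5 only. Exons of Krt6a, Krt6b, Krt7, Krt8, Krt12, Krt32, Krt75, Krt76, Krt80 and Krt90 are also overlapped by genes on the opposite strand. The depth behind each library limits low keratins: 3 counts correspond to between 0.385 and 1.65 CPM.

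Gene symbols and exon lengths came from GENCODE M21 on GRCm38, which matched 25336 of 25466 identifiers. Counts were scaled by TMM and filtered by edgeR's filterByExpr, and 17006 genes were fitted over all 8 libraries with edgeR (version 4.0.16, R version 4.3.3, limma version 3.58.1) by the quasi-likelihood test with Benjamini-Hochberg adjustment. Calls needed an adjusted p below 0.01 and a log2 fold change of 1 or more in either direction. The fit's biological coefficient of variation came to 15.5%. CPM uses the TMM-scaled library sizes. Every keratin with a mean of at least 10 CPM was named with its values. Partner ratios were compared by exact permutation with scipy (version 1.17.1), and the 12 p-values were adjusted together. The test was also run on simulated data with the same spread for all genes and subsets. This is a simpler setting than these data, so that run says little about the calls here. Replicates of each subset differed by more than sampling noise (3.29 to 9.84 chi-square per gene).

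Alternatives were DESeq2 (version 1.42.0), no low-count filter, only the 4 libraries compared, an adjusted p of 0.05, no fold limit, a replicate block, leaving out each library, and other lengths for the shares. Thinning to the smallest library, the partner ratios, the shared 54-base windows and the promoter letters were added after the data were seen. The keratins, their classes and the other gene lists were chosen with earlier results of these data known.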

Additional observations from a re-analysis of the deposited data

Results flagged for a closer look

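For 12 keratins the Tspan8 difference itself differed between MHCIIlo and MHCIIhi cells by the interaction test in edgeR. The values are the Tspan8 difference in MHCIIlo minus that in MHCIIhi on the log2 scale.

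Krt4 (3.75), Krt5 (-2.83), Krt7 (-1.89), Krt75 (2.78) and Krt79 (2.54) kept the call when any 1 library was left out, with ranges of 3.55 to 3.93, -3.10 to -2.55, -2.03 to -1.77, 2.51 to 3.003 and 2.22 to 2.94. Krt5 and Krt7 were lowest in Tspan8negMHCIIhi, while Krt4, Krt75 and Krt79 were lowest in Tspan8negMHCIIlo.

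Krt14 (-2.29) lost the call without replicate 2 of Tspan8negMHCIIhi, replicate 1 of Tspan8posMHCIIhi or replicate 2 of Tspan8posMHCIIlo, with values between -2.64 and -1.92 over all libraries left out. Krt16 (1.55, range 1.31 to 1.79) lost it without replicate 2 of Tspan8posMHCIIhi or either replicate of Tspan8posMHCIIlo. Krt77 (1.82, range 1.49 to 2.21) lost it without either replicate of Tspan8posMHCIIhi or replicate 2 of Tspan8posMHCIIlo.

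Krt19 (-1.25, range -1.49 to -1.01) and Krt20 (1.41, range 1.14 to 1.71) lost the call without any 1 of the 6 libraries outside Tspan8negMHCIIlo. Krt222 (1.60, range 1.49 to 1.81) lost it without replicate 2 of Tspan8negMHCIIhi or any 1 Tspan8pos library. Krt76 (2.69, range 2.32 to 3.10) lost it without either replicate of Tspan8negMHCIIhi, replicate 1 of Tspan8posMHCIIhi or either replicate of Tspan8posMHCIIlo.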

How the results depend on the processing

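With libraries left out in turn, the count of keratins called ran from 22 to 25 for Tspan8 in MHCIIlo, 19 to 25 for Tspan8 in MHCIIhi, 23 to 31 for MHCII in Tspan8neg, 4 to 12 for MHCII in Tspan8pos and 5 to 16 for the interaction. After thinning every library to the smallest total, 3 keratins were called for MHCII in Tspan8pos, against 10. DESeq2 called 8 there. The replicate block, fitted although numbers did not pair the libraries (correlations of 0.0121 to 0.124), called 25, 23, 33, 10 and 13 keratins in the same order.

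Without division by length, the simple share was 35.2% in Tspan8posMHCIIhi and 37.5% in Tspan8posMHCIIlo. The basal share was 31.2% in Tspan8negMHCIIhi, 29.5% in Tspan8posMHCIIhi and 30% in Tspan8posMHCIIlo, and the suprabasal share 9.69%, 33.2% and 30.9% in the same subsets. The type II share became 49.6%, 49.9%, 46.2% and 43.4% in Tspan8negMHCIIlo, Tspan8negMHCIIhi, Tspan8posMHCIIhi and Tspan8posMHCIIlo. With the longest transcript as length it was 41%, 42.5%, 36.9% and 34.5%, and in Tspan8posMHCIIlo the basal share was 33.2% and the suprabasal share 26%. With filtered keratins alone the type II share in Tspan8negMHCIIhi was 42.2%.

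Of 989 values of single keratins under alternatives other than leaving out a library, 34 lost a call and 12 gained one. Of 896 with a library left out, 129 lost a call, 3 gained one and 1 changed direction, the uncalled Tspan8 difference of Krt5 in MHCIIlo (0.011 without replicate 1 of Tspan8negMHCIIlo and -0.555 without replicate 2). The causes were not tested.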
